A study of Mus musculus with 4 samples.

Results

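The Xlr3, Xlr4 and Xlr5 genes are a multicopy family on the mouse X chromosome. The 9 members are Xlr3a, Xlr3b, Xlr3c, Xlr4a, Xlr4b, Xlr4c, Xlr5a, Xlr5b and Xlr5c, and they were taken by symbol from the 50559 genes of the count table. They had been selected on their lower counts in siCnot1 than in siNT, in these same libraries. The contrast between the groups therefore chose the members, and their differences are given below as a description, with no test. The study asked how loss of CNOT1 changes the transcriptome of mouse embryonic stem cells (ESCs), and CNOT1 is the scaffold of CCR4-NOT, the complex that shortens the poly(A) tails of mRNAs. All libraries came from E14 ESCs, a male line, kept on gelatin with serum replacement and leukemia inhibitory factor, and the study's methods describe ESCs that carry a tdTomato reporter driven by the MERVL promoter. One group was transfected with a non-targeting siRNA (siNT) and the other with an siRNA against Cnot1 (siCnot1), and cells were collected 48 h after the first transfection. Each group had 2 biological replicates, which are cultures of 1 line. P-values and standard errors come from a fit that shares information on spread across genes. They need not follow the spread between the 2 replicates of a single gene. The siRNA oligo used for these libraries is not singled out in the sources used here, and an effect of that oligo other than loss of Cnot1 cannot be told apart from the knockdown.

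Xlr stands for X-linked lymphocyte regulated, after the first member found in lymphoid cells. The encoded proteins are nuclear and related to SYCP3, which forms the lateral elements of the synaptonemal complex, the scaffold that holds homologous chromosomes together in meiosis. Members are known from germ cells, lymphoid cells and brain, and Xlr3b, Xlr4b and Xlr4c are imprinted in mouse brain, with expression mainly from the maternal X chromosome. The only X chromosome of a male line is of maternal origin.

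Counts on genes totalled 32135824 to 32557440 per library, so that 3 counts, taken as the floor of detection, correspond to 0.0921 to 0.0934 CPM, the counts scaled to a common library size. The targeted gene, Cnot1, had 912.8 and 986 normalized CPM in siNT and 184.7 and 192 in siCnot1, which is 19.8% of the control mean. Of 18144 genes with enough counts to be tested, 29.7% were called at an adjusted p under 0.05, 14.7% as lower and 15.0% as higher in siCnot1 (edgeR, quasi-likelihood test, Benjamini-Hochberg adjusted). These are 2668 lower and 2719 higher genes, a balance that became 1563 and 3999 when libraries were scaled by their totals alone. Mitochondrial genes took 1.17 and 1.4% of counts in siNT and 2.11 and 1.76% in siCnot1. The cells expressed all 10 ESC markers examined, and the sum of these markers was 6964 to 7201 CPM in siNT and 5907 to 6260 in siCnot1, with 7 called lower and 1 higher. Of 7 fibroblast markers, Col1a1 and Pdgfrb rose (log2 fold change 1.403 and 0.778) while Col3a1 and Dcn had 0 counts in every library, and the sum of the list was 17 to 20.3 CPM in siNT and 25.2 to 29.1 in siCnot1. The 7 lymphocyte markers summed to 2.06 to 2.52 CPM in siNT and 3.25 to 3.41 in siCnot1, with none at 0 in all libraries. Only 2 of the 7 were tested, Cd3e and Cd79a (log2 fold change 0.79 and 0.14), and neither was called. The 4 markers of differentiating cells summed to 2.58 to 4.40 CPM in siNT and 3.61 to 4.03 in siCnot1. None of the 3 tested was called, and T was at 0. The part of these differences in the values of the family was not tested. In such bulk libraries, fewer cells that express a gene and less of its RNA per cell cannot be told apart.

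The family lies in 1 cluster. In the deposited table, whose positions were taken as GRCm39, it spans 219.5 kb of chromosome X (72117949 to 72337469), with the members in the order Xlr4a, Xlr3a, Xlr5a, Xlr5b, Xlr3b, Xlr4b, Xlr4c, Xlr3c and Xlr5c. The subfamilies are thus interleaved along the chromosome, with 6 members on the minus strand and Xlr5b, Xlr3b and Xlr4b on the plus strand. Each gene covers 8132 to 11103 bases, with 9 to 13 exon blocks that add up to between 1247 bases (Xlr4c) and 2674 bases (Xlr5a). The start regions show how the members are related before any read is counted. RefSeq promoters (GRCm38.p6, 250 bases before to 50 bases after the annotated start) matched all 9 symbols, and 8 of them hold the letters CCAAT, the box read by the factor NF-Y. The 56 bases that end just past the last such box are shown for these 8 members, 5′ to 3′ on the strand of the gene, with the box in capitals.
Xlr3a: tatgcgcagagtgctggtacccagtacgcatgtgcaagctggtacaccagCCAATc
Xlr3b: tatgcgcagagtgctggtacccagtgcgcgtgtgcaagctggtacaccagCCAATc
Xlr3c: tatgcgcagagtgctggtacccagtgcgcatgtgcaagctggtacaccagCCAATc
Xlr4a: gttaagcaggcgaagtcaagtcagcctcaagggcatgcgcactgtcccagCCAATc
Xlr4b: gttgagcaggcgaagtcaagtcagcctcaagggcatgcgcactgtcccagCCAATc
Xlr4c: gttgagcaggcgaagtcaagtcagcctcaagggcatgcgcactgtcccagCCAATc
Xlr5a: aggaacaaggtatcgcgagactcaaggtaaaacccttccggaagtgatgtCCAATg
Xlr5b: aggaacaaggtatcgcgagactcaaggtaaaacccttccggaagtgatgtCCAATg

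In GRCm38.p6 these stretches lie at chrX:73097067-73097122 (Xlr3a, minus strand), chrX:73192108-73192163 (Xlr3b, plus), chrX:73265426-73265481 (Xlr3c, minus), chrX:73082546-73082601 (Xlr4a, minus), chrX:73214246-73214301 (Xlr4b, plus), chrX:73243139-73243194 (Xlr4c, minus), chrX:73117698-73117753 (Xlr5a, minus) and chrX:73148745-73148800 (Xlr5b, plus). The first base of the box lay at positions from -46 (Xlr5b) to 23 (Xlr3a) relative to the annotated start. Within a subfamily the stretches differed by 0 to 2 single-base edits, and Xlr4b and Xlr4c, like Xlr5a and Xlr5b, were identical. Between subfamilies they differed by 22 to 33 edits. The central part of the RefSeq window of Xlr5a was 51.0% identical to its best match in the window of Xlr5c, and that of Xlr5b 51.5%. Pairs from different subfamilies gave 50.5 to 56.0% on this measure. The 300-base window of Xlr5c held no CCAAT and had 1 CpG, against 16 CpGs in Xlr5a and in Xlr5b.

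For comparison, CCAAT on either strand was found in 37.4% of the 32842 other promoters of the same length. CGGAAG, the core letters read by ETS factors, was in 5 of the 9 members (all Xlr4 members, Xlr5a and Xlr5b) and in 16.8% of the others. None of the 9 held the E-box CACGTG, which was in 7.2% of the others. Nor did any hold TTCCCGC, letters read by E2F factors that were in 4.6% of the others. The TATA box, TATAAA, was likewise in 0 of the 9 and in 13.6% of the others. These 5 motifs were chosen after the promoters had been read, each was counted on both strands without regard to the others, and matches of different motifs could overlap by their end bases. CpG numbers in 300 bases were 5 to 7 in Xlr3 members and 7 or 8 in Xlr4 members, near the median of 7 in other promoters.

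Added up over its 9 members, the family received 6587 and 6981 counts in the siNT libraries, and 2530 and 2674 counts were left in the siCnot1 libraries. Both siCnot1 libraries were below both siNT libraries, and the replicates of a group differed by at most 1.06-fold. The normalized sum was 217 ± 7.77 CPM for siNT (SD, n = 2) against 77.7 ± 3.10 CPM for siCnot1 (SD, n = 2). This is 35.8% of the control level, or -1.48 as a log2 fold change (standard error 0.0625). With 1 library left out in turn this value lay between -1.53 and -1.45.

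Each subfamily showed a difference of this order. The Xlr3 sum was 3293 and 3563 counts in siNT and 1338 and 1392 in siCnot1, a log2 fold change of -1.43 (standard error 0.0727). The Xlr4 sum was 1582 and 1572 counts in siNT and 661 and 637 in siCnot1, a log2 fold change of -1.38 (standard error 0.0939). The Xlr5 sum was 1712 and 1846 counts in siNT and 531 and 645 in siCnot1, a log2 fold change of -1.70 (standard error 0.102). Levels in siCnot1 were thus 37.1%, 38.4% and 30.8% of the siNT means for Xlr3, Xlr4 and Xlr5. The intervals of 1 standard error around the Xlr3 and Xlr4 values overlap each other, and that of Xlr5 lies below both. Without siCnot1 replicate 1, however, the Xlr5 sum was at -1.57 (standard error 0.122), beside -1.40 (0.0968) for Xlr3 and -1.41 (0.121) for Xlr4, and these intervals overlap, so the lower place of Xlr5 rests on that library.

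All 9 members passed the filter on low counts, and in all 9 both siCnot1 libraries were below both siNT libraries. Groups did not overlap in this direction for 31.3% of all genes tested. The log2 fold change was at or under -1 in all 9, against 2.45% of all genes tested. The median over the members was -1.46, beside 0.0084 over all tested genes, and 355 other genes lay below Xlr3b, the member with the smallest difference. Since the members were chosen for being lower, these counts and shares carry no weight of their own. The values by member show which genes contribute.

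Among the Xlr3 genes, the copies with the highest levels in control cells behaved unequally. Xlr3c had 1321 and 1364 counts in siNT and 354 and 389 in siCnot1, and its log2 fold change of -1.95 (standard error 0.105) was the lowest of the family. Xlr3a had 1151 and 1258 counts in siNT and 529 and 564 in siCnot1, a log2 fold change of -1.24 (standard error 0.102). Xlr3b had 821 and 941 counts in siNT and 455 and 439 in siCnot1, a log2 fold change of -1.08 (standard error 0.111), the highest of the family. With 1 library left out in turn, Xlr3c lay between -2.03 and -1.89. Xlr3a lay between -1.30 and -1.18 and Xlr3b between -1.17 and -0.98. The gap between Xlr3c and the other Xlr3 genes was not tested, and these genes share reads. The lowest siNT library exceeded the highest siCnot1 library 3.65-fold for Xlr3c, 2.195-fold for Xlr3a and 1.94-fold for Xlr3b in normalized CPM. Xlr3b was at -0.97 when libraries were scaled by their totals alone and at -0.98 without siNT replicate 2.

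The Xlr4 genes were close to one another. Xlr4a had 700 and 651 counts in siNT and 281 and 306 in siCnot1, a log2 fold change of -1.30 (standard error 0.124). Xlr4b had 544 and 575 counts in siNT and 240 and 216 in siCnot1, a log2 fold change of -1.40 (standard error 0.135). Xlr4c, the least counted member, had 338 and 346 counts in siNT and 140 and 115 in siCnot1, a log2 fold change of -1.52 (standard error 0.175). The intervals of 1 standard error of neighbouring values overlap, so no order among the 3 Xlr4 genes is given.

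The Xlr5 genes held the widest spread between replicates. Xlr5a had 603 and 600 counts in siNT and 161 and 178 in siCnot1, a log2 fold change of -1.93 (standard error 0.139). Xlr5b had 433 and 543 counts in siNT and 160 and 138 in siCnot1, a log2 fold change of -1.81 (standard error 0.160). Xlr5c had 676 and 703 counts in siNT and 210 and 329 in siCnot1, a log2 fold change of -1.46 (standard error 0.152). The siCnot1 replicates of Xlr5c differed 1.57-fold in normalized CPM, more than those of any other member, and its log2 fold change was -1.82 without siCnot1 replicate 2 and -1.17 without siCnot1 replicate 1. Whether Xlr5c differed from Xlr5a and Xlr5b by more than this spread therefore rests on 1 library.

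**Figure D1:**
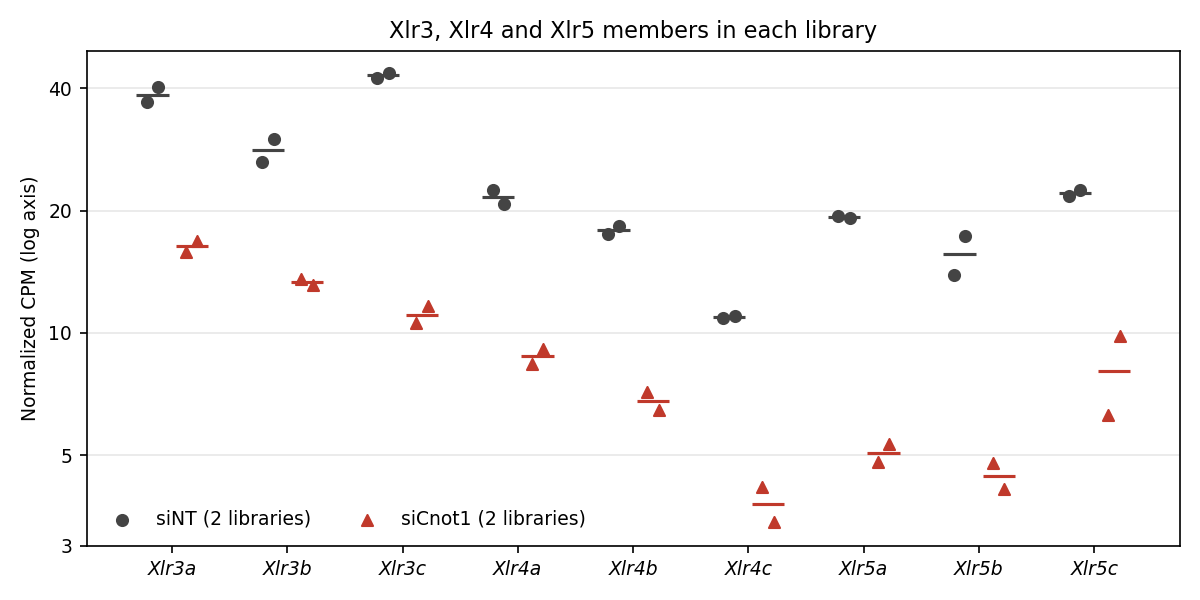
Normalized CPM (log axis) of the 9 members in each library, with circles for the 2 siNT and triangles for the 2 siCnot1 libraries and bars for group means. All siCnot1 points lie below the siNT points of the same gene, and the siCnot1 replicates of Xlr5c stand 1.57-fold apart.

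The members share reads, which bears on how far the values of single genes can be trusted. The longest protein-coding GENCODE M21 transcripts were 92.2 to 97.9% identical among Xlr3 genes and 98.9 to 99.3% among Xlr5 genes. They were 60.9 to 88.1% identical among Xlr4 genes, whose longest transcripts differ in length, and 50.3 to 55.2% between subfamilies. All 150-base windows of the members' annotated protein-coding transcripts, the read length of the libraries, were compared with those of all other genes. The share found in no other gene was highest for Xlr4a (76.1%), Xlr3c (70.4%) and Xlr3a (70.2%), and was 62.5% for Xlr4c, 56.5% for Xlr4b, 52.3% for Xlr5c, 52.0% for Xlr3b and 50.7% for Xlr5a. It was lowest for Xlr5b, with 29.4% or 469 of 1594 windows. Nearly all shared windows were shared within the subfamily, so that a read from an Xlr5 gene may be placed on another Xlr5 gene but hardly on an Xlr3 or Xlr4 gene. How the counting treated reads with more than 1 placement is not given in the sources used here. The subfamily sums do not depend on how reads placed within a subfamily were divided, apart from reads that were dropped. Reads were paired, so a pair can be placed where a single window cannot. The windows were matched exactly and to annotated transcripts only, not to the genome. These shares are therefore a rough guide.

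**Figure D2:**
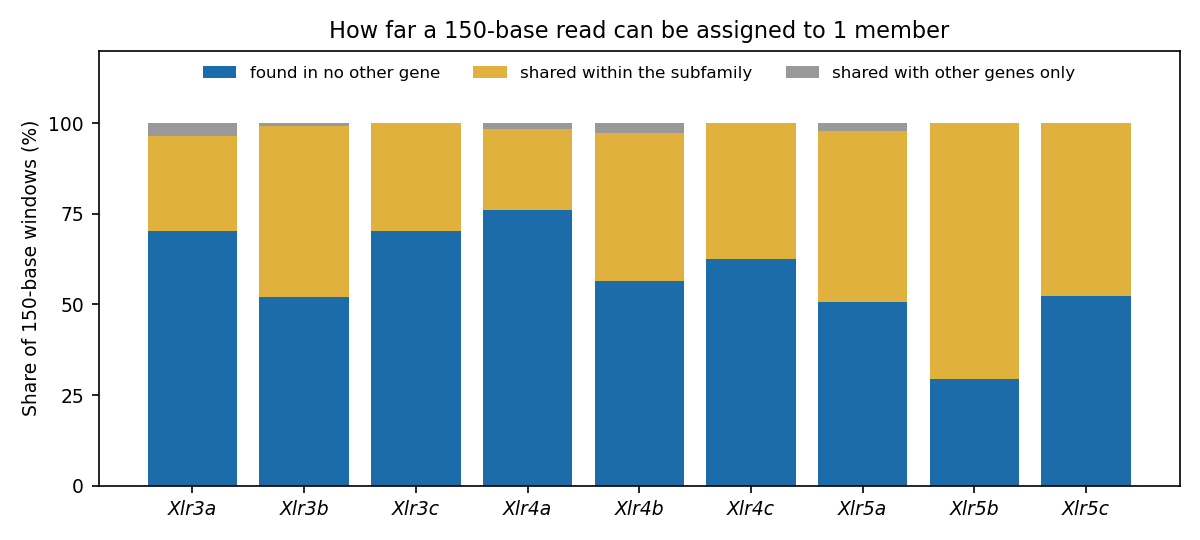
Percent of the 150-base windows of each member's protein-coding transcripts that occur in no other gene, within the same subfamily, or in other genes only. The unique share runs from 29.4% in Xlr5b to 76.1% in Xlr4a, and shared windows lie mostly within the subfamily.

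The composition of the family also differed between the groups. Xlr3c made up 20.1% (95% Wilson interval 19.1 to 21.04) and 19.5% (18.6 to 20.5) of family counts in the siNT libraries, against 13.99% (12.7 to 15.4) and 14.6% (13.3 to 15.9) in the siCnot1 libraries. Xlr3a went the other way, with 17.5% and 18.0% in siNT and 20.9% and 21.1% in siCnot1. Xlr3b held 12.5% and 13.5% in siNT, against 18.0% and 16.4% in siCnot1. For these 3 genes neither the libraries of the groups nor their intervals overlapped. The first rank in the family thus passed from Xlr3c to Xlr3a, although both genes were lower in siCnot1. Xlr5a, with 9.2% and 8.6% in siNT against 6.4% and 6.7% in siCnot1, was also apart in libraries and intervals. Libraries alone were apart for Xlr4a (10.6% and 9.3% against 11.1% and 11.4%) and Xlr5b (6.6% and 7.8% against 6.3% and 5.2%). Shares come from the contrast that chose the members and were not tested. Xlr5c held 10.3% and 10.1% in siNT, against 8.30% and 12.3% in siCnot1, with the siCnot1 replicates on either side. By subfamily, Xlr3 genes held 49.99% and 51.04% of family counts in siNT, against 52.9% and 52.1% in siCnot1. Xlr4 genes held 24.02% and 22.5%, against 26.1% and 23.8%, and here the groups overlapped. Xlr5 genes held 25.99% and 26.4%, against 20.99% and 24.1%. These intervals cover counting error only.

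Per length of exon, all 9 members were above the median tested gene (3.36 FPKM, counts scaled for library size and for the length of the exons) in siNT. Xlr3c was the highest with 24.2 and 24.8 FPKM in its siNT libraries, followed by Xlr3a with 18.7 and 20.3. Xlr4a had 17.6 and 16.2 FPKM and Xlr3b 14.7 and 16.8, and this pair overlapped. Next came Xlr5c with 14.2 and 14.6 FPKM, Xlr4b with 12.0 and 12.6 and Xlr4c with 8.71 and 8.85. The lowest levels were those of Xlr5a, with 7.25 and 7.16 FPKM, and Xlr5b, with 5.22 and 6.49. Apart from Xlr4a and Xlr3b, the replicates of neighbours in this order did not overlap, but with 2 libraries the order is a description. The highest mean was 4.18 times the lowest, and 3.72 times when the longest transcript was used as the length, which also moved Xlr4c to the last place. In siCnot1 the mean FPKM ran from 8.26 in Xlr3a to 1.67 in Xlr5b, with Xlr3c in 4th place at 6.32. The family as a whole made up 0.697% of the raw counts on chromosome X pooled over the siNT libraries, with genes annotated at several loci left out.

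Genes around the cluster were examined next, since members lie side by side. The deposited table lists 45 other genes between the outermost members or within 500 kb of them, of which 23 were tested. Of these, 8 were called lower (34.8%, against 14.7% of all genes tested) and 2 higher (8.70%, against 15.0%), and the median log2 fold change was -0.26. With library totals the split was 5 lower and 4 higher, with a median of -0.15. Between the outermost members lie 4 listed genes, of which 3 were tested, and they did not move alike. F8a, which encodes a partner of huntingtin and sits between Xlr4b and Xlr4c, had 124 and 136 counts in siNT and 115 and 113 in siCnot1, a log2 fold change of -0.29 that was not called (edgeR adjusted p = 0.371). DXBay18 fell from 134 and 121 counts to 15 and 27, a log2 fold change of -2.70 (standard error 0.333, edgeR adjusted p = 1.70e-06). Gm14685 fell from 65 and 87 counts to 32 and 27, a log2 fold change of -1.46 (standard error 0.353, edgeR adjusted p = 0.00280), and was not called without siNT replicate 1 (0.0508), siNT replicate 2 (0.0952) or siCnot1 replicate 2 (0.0537).

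DXBay18 and Gm14685 overlap the family itself. DXBay18 shares 509 exon bases with Xlr5b and Gm14685 shares 442 with Xlr5a, each on the opposite strand. The library protocol marks the strand, but the strand setting of the count is not given in the sources used here, so the reads of these pairs cannot be assigned to one gene or the other with certainty. Without this pair, 6 of 21 tested neighbours were called lower, with a median of -0.15. With any 1 library left out, 5 or 6 of all neighbours were called, in place of 10.

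Outside the cluster, but within 500 kb of it, no tested gene was as low as a member with all libraries in the fit. On the side of Xlr4a, Pnma3, a member of the paraneoplastic antigen family, lies 6.15 kb away. It had 30 and 26 counts in siNT and 14 and 16 in siCnot1. Its log2 fold change of -0.995 (standard error 0.532) was not called (edgeR adjusted p = 0.172). The interval of 1 standard error around this value includes the value of Xlr3b (-1.08). Without siNT replicate 2, Pnma3 was at -1.10 and Xlr3b at -0.98. Without siCnot1 replicate 2, Pnma3 was at -1.10 and Xlr3b at -1.06. Pnma5, of the same family and 34.6 kb away, fell by 0.69 on the log2 scale (standard error 0.0902, edgeR adjusted p = 3.66e-06). On the side of Xlr5c, Zfp275, a zinc finger gene 48.7 kb away, fell with -0.30 (edgeR adjusted p = 0.0217), a call that was lost with any 1 library left out (0.0935 to 0.174) and with library totals (0.148). Gm18336, 103 kb away, fell with -0.71 (standard error 0.0762, edgeR adjusted p = 2.40e-07). Farther out, Dusp9, an ERK phosphatase gene, fell with -0.34 (edgeR adjusted p = 0.000120), whereas Slc6a8, the creatine transporter gene, rose with 0.67 (edgeR adjusted p = 3.32e-08). Gm32261, named after its values had been seen, had 20 and 15 counts in siNT and 49 and 39 in siCnot1. Its log2 fold change of 1.22 (standard error 0.461, edgeR adjusted p = 0.0482) was in size within the range of the members but in the other direction. This call lay close to the threshold, and Gm32261 was not followed through the alternatives. Of the 3 tested genes between the outermost members, Gm14685 and DXBay18 were as low as the members.

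**Figure D3:**
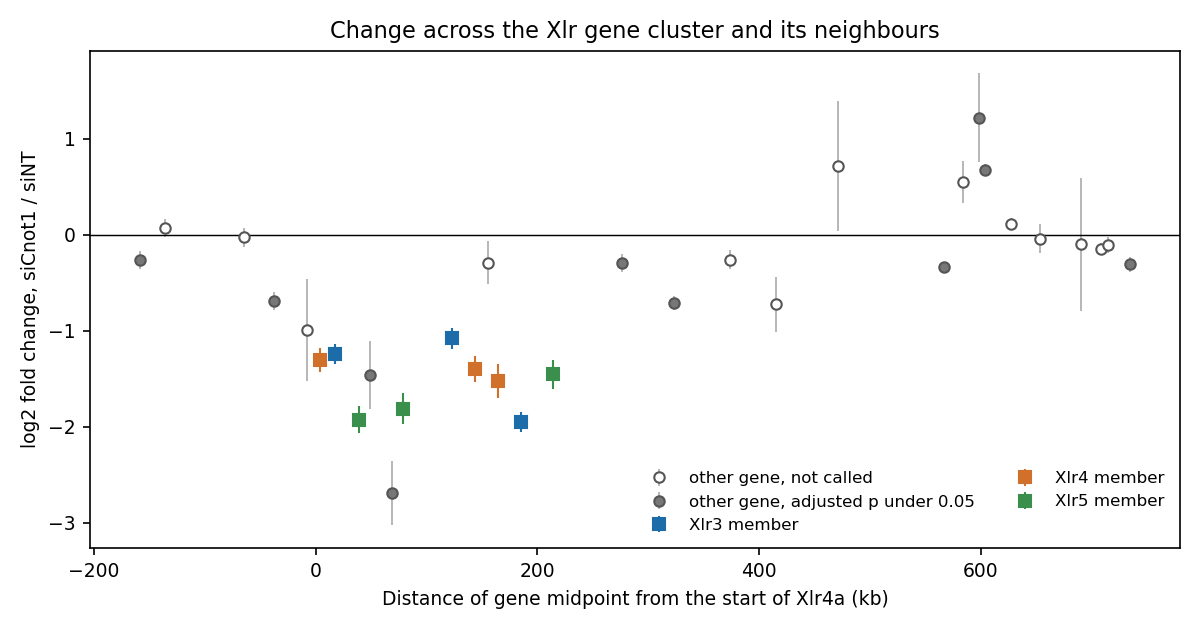
Log2 fold change (siCnot1 over siNT) with 1 standard error for the 9 members (squares, coloured by subfamily) and the 23 tested neighbours (circles, filled where the adjusted p was under 0.05), against the distance of the gene's midpoint from the start of Xlr4a in kb. The members lie between -1.95 and -1.08, while F8a inside the cluster lies at -0.29 and DXBay18 and Gm14685, which overlap Xlr5 exons, at -2.70 and -1.46.

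The X chromosome as a whole did not share these values. Of 698 tested X-linked genes that are no members, 112 were called lower (16.05%) and 87 higher (12.5%). Their median log2 fold change was -0.07, and with library totals the split turned to 74 lower and 125 higher, with a median of 0.03. The shares called are close to the 14.7% and 15.0% of all genes. At or under -1 were 23 of the 698 genes, called or not, beside 444 of all 18144 genes tested (2.45%). The X-linked genes with the smallest adjusted p were Gm52429, which fell from 343.2 and 312.5 to 148.6 and 144.9 normalized CPM (log2 fold change -1.16, edgeR adjusted p = 5.50e-12), and the homeobox gene Rhox5, which fell from 209 and 208.1 to 127.4 and 124.2 (log2 fold change -0.73, edgeR adjusted p = 3.51e-09). In the other direction these were Slc6a8 and Lamp2, which encodes a lysosomal membrane protein and rose from 35.5 and 38.5 to 75.6 and 63.4 normalized CPM (log2 fold change 0.91, edgeR adjusted p = 8.84e-08). Calls on the chromosome numbered 69 to 109 with any 1 library left out, in place of 199.

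Of 11 listed relatives of the family, 4 were tested and 1 was called. Sycp3, the single-copy autosomal relative, fell from 680 and 581 counts to 503 and 396, a log2 fold change of -0.59 (standard error 0.129, edgeR adjusted p = 0.00123). It was not called without siNT replicate 1 (0.160), siNT replicate 2 (0.0540) or siCnot1 replicate 2 (0.0912). The founding gene Xlr, which lies elsewhere on the X chromosome, had 64 and 90 counts in siNT and 53 and 62 in siCnot1 (log2 fold change -0.52, edgeR adjusted p = 0.220). The pseudogenes Xlr3d-ps and Xlr4e-ps had 7 to 29 counts per library, with log2 fold changes of -0.996 (edgeR adjusted p = 0.309) and 0.38 (0.671), and the sign of Xlr4e-ps changed without siNT replicate 2 (-0.24). These 3 were named after their values had been seen. The related spermatid genes Slx, Slxl1 and Sly had 0 counts in every library, which allows up to 3 counts in each.

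Lists of other germline and meiotic genes had medians closer to 0 than that of the family, whose members were chosen for being lower. Beside the shares of the lists that follow stand those of all genes tested, 14.7% lower and 15.0% higher. Of 27 tested genes of meiotic chromosomes, 9 were called lower (33.3%) and 2 higher (7.41%), with a median of -0.17, and Sycp3 is one of the lower genes here too. With any 1 library left out, 4 to 7 genes of this list were called in place of 11. Smc1b, a meiotic cohesin subunit, fell from 1988 and 2028 counts to 1031 and 970, a log2 fold change of -1.11 (edgeR adjusted p = 2.18e-09). Tex11, an X-linked gene needed for crossovers, fell from 749 and 814 counts to 405 and 426, a log2 fold change of -1.01 (edgeR adjusted p = 4.04e-07). The meiotic cohesin gene Rec8 and the break-forming factor Mei4 were called higher (0.59 and 1.16, edgeR adjusted p = 0.0203 and 0.0367). Neither of the latter pair was robust, since Rec8 was not called with any 1 library left out (0.0934 to 0.129) and Mei4 was not called without siNT replicate 1 (0.418), siNT replicate 2 (0.116) or siCnot1 replicate 1 (0.542), nor with the replicate block (0.0595).

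Germline genes that DNA methylation and related repressors keep silent outside the germ line gave 11 lower (45.8%) and 2 higher (8.33%) of 24 tested, with a median of -0.25, and with any 1 library left out 8 or 9 were called in place of 13. Piwil2, of the piRNA pathway, fell from 2057 and 2144 counts to 946 and 873, a log2 fold change of -1.31 (edgeR adjusted p = 2.30e-10), which is within the range of the members. Dazl, an RNA-binding protein of germ cells, fell from 11278 and 12099 counts to 7334 and 6986, a log2 fold change of -0.81 (edgeR adjusted p = 7.70e-10). Brdt and Sohlh2 were called higher (0.60 and 0.20, edgeR adjusted p = 0.0125 and 0.0141), and Sohlh2 lost the call with any 1 library left out (0.0699 to 0.198) and Brdt without siNT replicate 1 (0.165), siNT replicate 2 (0.153) or siCnot1 replicate 1 (0.243).

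Gene families of testis, ovary and placenta that lie mostly on the X chromosome had 119 listed genes, matched by symbol, of which 52 were tested and 41 had 0 counts in every library. They gave 8 lower (15.4%) and 3 higher (5.77%), with a median of -0.35, and the lower share is near the 14.7% of all genes. Of the 52, 6 were at or under -1, called or not, beside 444 of all 18144 genes tested (2.45%). A call is harder to reach in genes with few counts. Magea4 (-1.295, edgeR adjusted p = 9.02e-05), Magea3 (-1.63, 0.0118) and Mageb6-ps (-1.69, 0.0136) were called and lay within the range of the members. Magea3 had 12 to 73 counts per library and Mageb6-ps 11 to 42. These Mage genes were named after their values had been seen. Of the 119, 4 are not on chromosome X (Nxf1, Ssx2ip, Mageb16-ps2 and Mageb3), none of them called, and without them 8 of 49 tested genes were lower and 3 higher. With any 1 library left out, 3 to 7 were called in place of 11. Rhox5 and Tex11, already described, had the smallest adjusted p among the lower genes, and Nxf3 and Rhox13 among the higher ones (log2 fold change 0.80 and 0.49, edgeR adjusted p = 0.000345 and 0.00888). Nxf3 was not called without siNT replicate 1 (0.100) or siCnot1 replicate 2 (0.0526), and Rhox13 was not called without siNT replicate 1 (0.0902), siNT replicate 2 (0.278) or siCnot1 replicate 2 (0.273).

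Regulators of DNA methylation, H3K9 methylation, ATRX and the PRC1.6 repressor act on many germline genes. Of 27 tested, 13 were lower (48.1%, against 14.7% of all genes) and 0 higher (against 15.0%). Their median was -0.19 and the lowest value -0.49. These genes had from 535 (Tet3) to 55747 (Trim28) counts per library, and small differences are easier to call in genes with many counts. Cdca7, an activator of the remodeller HELLS, fell from 8589 and 8944 counts to 6720 and 6638, a log2 fold change of -0.49 (edgeR adjusted p = 5.60e-07). Rnf2, the ubiquitin ligase of PRC1, fell from 6727 and 7394 counts to 5486 and 5410, a log2 fold change of -0.47 (edgeR adjusted p = 2.11e-06). With library totals 6 of the 27 were called lower and 2 higher, with a median of -0.09. With any 1 library left out, 5 to 8 were called, all lower.

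**Figure D4:**
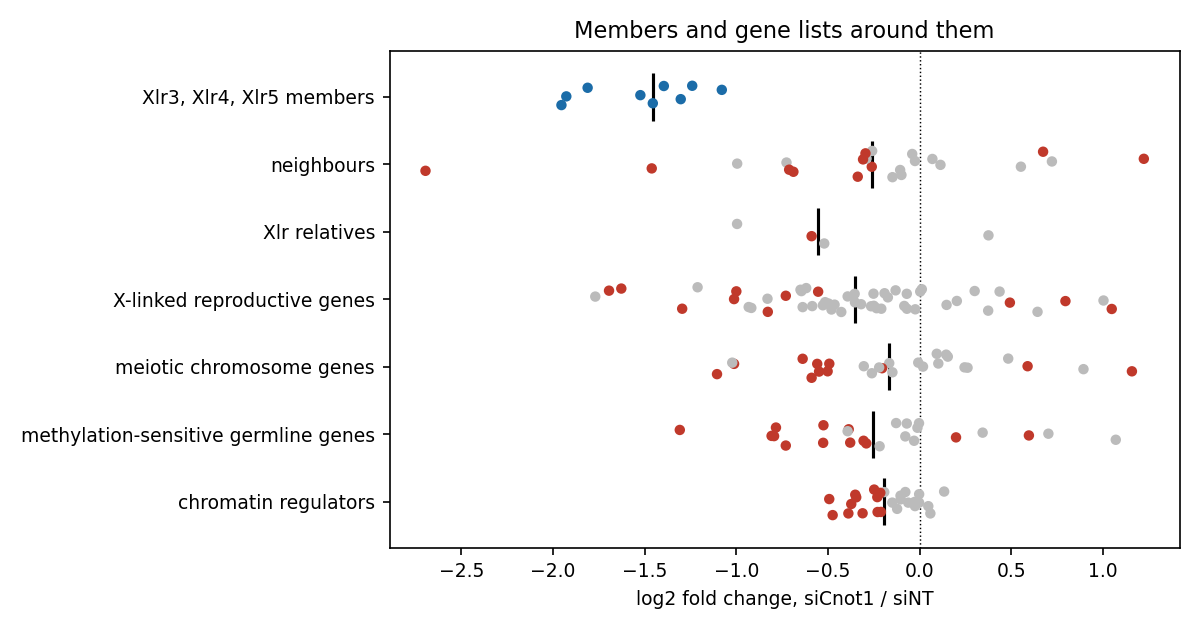
Log2 fold change (siCnot1 over siNT) of the members (blue) and of the tested genes in 6 lists, red where the adjusted p was under 0.05 and grey otherwise, with black bars for medians and a dotted line at 0. Vertical scatter within a row has no meaning. The member median is -1.46, and the list medians run from -0.55 (Xlr relatives, 4 genes) to -0.17 (meiotic chromosome genes).

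With the members left aside, the 5 genes whose pattern over the 4 libraries was most like that of the family sum came from other chromosomes. Likeness was measured as the root mean square difference of log2(CPM + 0.5), centred for each gene, from that of the sum, over 14522 genes with a mean of at least 1 CPM. The closest were Gm38787 (0.0769), Klk11 (0.0828), a kallikrein gene, Msln (0.0863), which encodes mesothelin, Oas1a (0.0926), of the interferon-induced oligoadenylate synthetases, and Tnfaip2 (0.111). Msln had 22.6 and 23.3 normalized CPM in siNT and 6.87 and 7.11 in siCnot1. The log2 fold changes of these 5 genes ran from -1.46 (Oas1a) to -1.815 (Tnfaip2), beside -1.48 for the family sum. The 0.5 added to CPM shrinks differences more in genes with few CPM. Single members lay between 0.106 (Xlr4b) and 0.222 (Xlr3b) from the sum on this measure. Among the 9493 genes with a mean of at least 10 CPM, Msln came first, followed by Piwil2, Gm41031, Id1 and the X-linked Gm52429.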

How the data were processed

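Poly(A)+ RNA of 2 siNT and 2 siCnot1 cultures was sequenced as 150-base pairs. The authors deposited raw counts per gene for each library, with exon lengths, without normalization or pooling. Per the labels, the submitters' processing notes name fastp 0.19.4, HISAT2 2.2.1, DESeq2 1.40.2 and mm10, but all 9 members lie over 100 kb from their GRCm38 positions, so deposited positions were taken as GRCm39. The counting program, its strand setting and its treatment of multiply placed reads are not given in the sources used here. RefSeq promoters (GRCm38.p6) and GENCODE M21 transcripts were joined by symbol only.

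Counts were fitted with edgeR 4.0.16 in R 4.3.3 (filterByExpr with minimum count 10, TMM, quasi-likelihood test, condition as the only term, Benjamini-Hochberg adjustment over 18144 genes). Sums replaced the rows of their members in the table. Standard errors were derived from the F statistic of each test, in which the spread of a gene is moderated across all genes. FPKM used TMM-scaled counts and deposited exon lengths. On simulated data with 18144 genes, 200 of them changed 2-fold, 164 were recovered with 6 false calls. Alternatives were other scalings, filters, tools (DESeq2 1.42.0, limma-voom with limma 3.58.1), the replicate block, other windows and lengths, and leaving out each library; 3 of them, the longest-transcript length, the neighbours without the overlapping pair and the reproductive list on chromosome X only, were chosen after the data had been seen.

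Members and lists were chosen with earlier results of these data known. Genes named are the 9 members, Cnot1, the 2 called genes with the smallest adjusted p in each direction of each list, the tested gene nearest to each run of members, up to 6 called neighbours, and the 5 genes most like the family sum. Markers, Gm32261, Magea3, Magea4, Mageb6-ps, 4 genes off the X chromosome and the 3 Xlr relatives not called are named in addition.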

Additional observations from a re-analysis of the deposited data

How the results depend on the processing

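The family sum and the subfamily sums kept their direction in every alternative run. Scaling by library totals raised the median log2 fold change of all tested genes from 0.0084 to 0.12 and gave -1.38 for the family, -1.32 for Xlr3 and -1.27 for Xlr4, a shift that touches every gene; it left 1563 genes called lower and 3999 higher in place of 2668 and 2719, and 8 chromatin regulators called in place of 13. Without a filter on low counts, more genes were tested and 1450 were called lower and 1303 higher, with 6 neighbours, 104 genes of the X chromosome, 0 Xlr relatives, 5 meiotic chromosome genes, 8 germline genes and 5 X-linked reproductive genes called; the cause was not tested. Called neighbours numbered 6 within 250 kb and 16 within 1000 kb, against 10 within 500 kb, and members summed by subfamily give 3 values at or under -1 in place of 9 by construction. With 1 library left out in turn, which leaves a lone library assumed to vary like the other group, called genes ranged from 871 to 1463 lower and from 743 to 1439 higher, both lowest without siNT replicate 1. In the same fits, calls ranged from 5 to 6 for neighbours, 69 to 109 for the X chromosome, 0 to 1 for Xlr relatives, 4 to 7 for meiotic chromosome genes, 8 to 9 for germline genes, 3 to 7 for X-linked reproductive genes and 5 to 8 for chromatin regulators, and 8 to 9 members were at or under -1. Xlr4e-ps ranged from -0.24 (without siNT replicate 2) to 1.44 (without siNT replicate 1). Over 333 values from all alternatives for 28 named genes outside the family, 41 calls were lost. Replicate numbers are shared by the groups in the labels, but the correlation of the deviations from group means between libraries with the same number was 0.0109, so the number was not taken to pair them. With the replicate block, 2431 genes were called lower and 2524 higher, and the family was at -1.48.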
